A study of Homo sapiens with 15 samples.

Results

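The endoplasmic reticulum (ER) translocon genes were 10 of the 12261 genes in the deposited table, chosen by name: the channel subunits SEC61A1, SEC61B and SEC61G, the channel partners SEC62 and SEC63, the translocon-associated protein (TRAP) subunits SSR1, SSR2, SSR3 and SSR4, and TRAM1. The cells were HEK-293 Trex, a human cell line derived from embryonic kidney whose tetracycline repressor lets doxycycline, here 200 ng/mL, switch on a CLIP-tagged protein. There were 3 lines: UPF1-1 expressed isoform 1 of UPF1, UPF1-2 expressed isoform 2, and the control expressed GFP. Every line received the drug. Total RNA was sequenced from the 3 lines, and RNA bound to the tagged protein (IP) was sequenced from the UPF1 lines, giving 5 groups of 3 libraries and 15 in all. Each protein was carried by a line of its own, so effects of the protein and differences between lines cannot be told apart. No GFP purification was analysed here, so recovery in an IP is relative to total RNA of the same line. The labels do not say whether replicates were separate cultures, and p-values therefore measure the spread between these samples.

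UPF1 is an RNA helicase that drives nonsense-mediated decay, and its isoforms differ in the length of a regulatory loop in the helicase domain. The translocon is the gate through which secretory and membrane proteins enter the ER. A ribosome docks on the SEC61 channel, in which SEC61A1 forms the pore and SEC61B and SEC61G are small tail-anchored subunits. TRAP, built of SSR1 (alpha), SSR2 (beta), SSR3 (gamma) and SSR4 (delta), sits beside the channel and assists the entry of some signal sequences. SEC62 and SEC63 help chains that the channel admits poorly, SEC63 by bringing the chaperone BiP to the lumenal side. TRAM1 is a membrane protein that contacts nascent chains as they enter the bilayer. Many genes of the ER import machinery are known targets of the unfolded protein response, whose factors XBP1 and ATF6 bind the elements called UPRE and ERSE.

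The induced gene UPF1 was checked first: total RNA held 129 ± 49.8 TPM of it in the UPF1-1 line, 104 ± 57.9 TPM in the UPF1-2 line and 5.20 ± 2.93 TPM in the GFP line (SD, n = 3 each). TPM is a share of all transcripts, corrected for transcript length, so levels can be compared between genes as listed. Only 1 transcript was listed for each gene, so other transcripts of a gene may not be counted. The listed genes held 15.8% of the TPM scale in UPF1-1, 14.6% in UPF1-2 and 14.9% in GFP total RNA. In the UPF1-1 and UPF1-2 IPs they held 54.2% and 54.6% (means, n = 3 each). Of 6 markers known from HEK-293 cells, 4 were in the table, with VIM between 113 and 184 TPM over the total RNA libraries, while PAX2 and NEFM were not listed. None of 7 markers of blood, liver, fibroblasts and endothelium was listed, and the table held no gene with a mean below 0.25 TPM in any total RNA group. Replicate 3 stood apart from replicates 1 and 2 in every group. Across genes, deviations from the group mean in total RNA correlated between libraries of the same number with r between 0.70 and 0.95, and between replicate 3 and the others with r of -0.72 or lower. Deviations within a group cancel out, so part of the negative correlation between unlike numbers was fixed in advance. That replicate 3 stood apart was known from earlier results of these data when the fit was chosen. The fit that leads below therefore blocks on the replicate number and sets library medians equal. Counts from the fits without these steps stand beside the counts they change.

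The translocon mRNAs differed widely in level. In GFP total RNA, SSR4 averaged 41.1 ± 4.06 TPM, SEC61B 37.9 ± 1.63 and SEC61G 24.1 ± 3.69 (SD, n = 3). SSR2 averaged 14.1 ± 4.77 TPM, SSR3 13.1 ± 2.20, TRAM1 7.23 ± 0.590 and SEC61A1 3.88 ± 2.17. Lowest were SEC62 at 1.48 ± 0.223 TPM, SSR1 at 1.43 ± 0.525 and SEC63 at 0.766 ± 0.280. In this order the libraries of SSR4 and SEC61B, of SSR2 and SSR3, and of SEC62 and SSR1 overlapped, and the other neighbours did not. As listed, with 1 transcript per gene, messages for subunits of the same complex thus stood at very different levels, both within the channel and within TRAP. The authors' deposited mean natural log of estimated counts over the UPF1-1 and GFP libraries was between 6.22 for SEC63 and 8.83 for SSR3, the natural log of an estimated read number. Summed over the members, the level was 186 ± 8.90 TPM in UPF1-1 total RNA, 150 ± 33.3 TPM in UPF1-2 total RNA and 145 ± 8.67 TPM in GFP total RNA.

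In total RNA, 5 of the 9 members tested rose with UPF1-1 relative to GFP and 1 fell. SSR2, SSR3, SSR4, SEC61A1 and SEC61B rose by 1.18-fold to 1.39-fold, and SEC62 fell to 0.776-fold. Over all 9325 genes tested in this fit, 8.38% were higher and 7.79% lower at the same threshold of an adjusted p of 0.05. The median log2 change was 0.24 over the members tested and -0.01 over all genes. SEC63 was below the filter of 1 TPM in 3 libraries and was not tested. In RNA from whole cultures, fewer expressing cells and less RNA per cell cannot be told apart. These calls depended on both the replicate block and the centring. By limma with the block but no centring, 2 of 9 members rose (SSR2 and SSR4, adjusted p of 0.024 and 0.026, against 2.85% of all genes higher and 0.375% lower). With medians equal but no block, all 6 calls were lost, and 11 of all 9325 genes were higher and 5 lower. With neither step, none of 9 passed, 1 had an unadjusted p under 0.05, and 0.0214% of all genes passed.

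**Figure D1:**
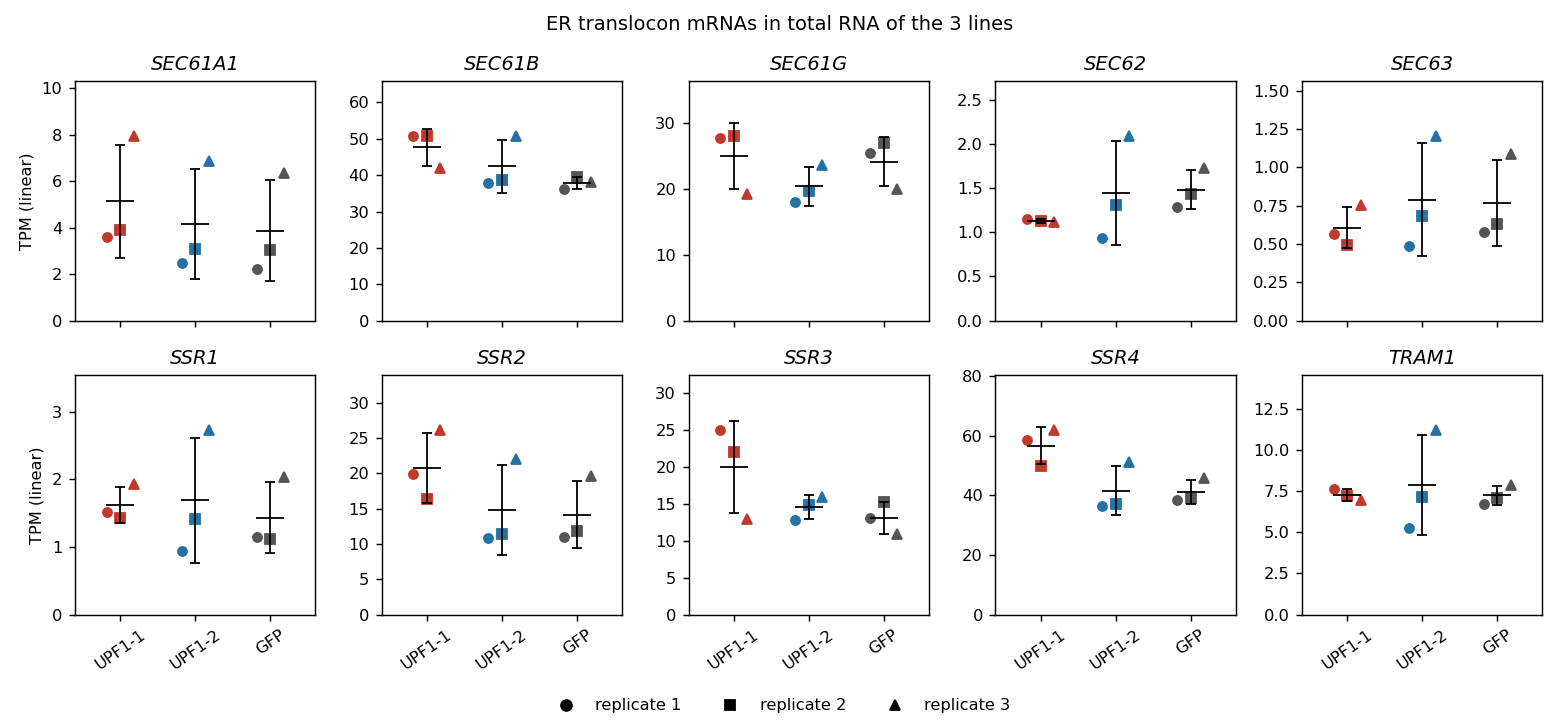
TPM (linear axes, each starting at 0) of the 10 translocon mRNAs in total RNA of the UPF1-1, UPF1-2 and GFP lines; symbols are the 3 replicate numbers, bars the mean and SD. All 3 UPF1-1 libraries of SSR4 and SEC61B lie above all 3 GFP libraries and those of SEC62 below them, and replicate 3 (triangles) is the highest library of SEC61A1 in each line.

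The promoter sequences of 5 of these 6 mRNAs are shown, since the elements known from the unfolded protein response can be looked for in them. SEC61A1, which has 2 listed starts and no UPRE core match, is not shown. Each sequence is the 150 bases before a transcription start in the RefSeq promoter table (GRCh38.p14). It is written 5′ to 3′ on the gene's strand, with capitals for a match to the UPRE core TGACGTGG on either strand. Where SSR3 and SSR4 have several listed starts, the window shown is the one that held the match, so the display is not a neutral sample. SEC62 lies at chr3:169966657-169966806 on the plus strand, SSR3 at chr3:156554126-156554275 on the minus strand and SSR4 at chrX:153794518-153794667 on the plus strand. SSR2 lies at chr1:156020952-156021101 on the minus strand and SEC61B at chr9:99222132-99222281 on the plus strand.
SEC62: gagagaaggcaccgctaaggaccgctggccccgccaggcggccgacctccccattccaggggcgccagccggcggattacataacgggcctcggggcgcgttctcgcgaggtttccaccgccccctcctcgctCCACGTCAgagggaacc
SSR3: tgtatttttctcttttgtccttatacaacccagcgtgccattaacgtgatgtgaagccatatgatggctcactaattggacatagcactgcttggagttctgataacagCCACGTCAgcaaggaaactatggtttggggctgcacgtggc
SSR4: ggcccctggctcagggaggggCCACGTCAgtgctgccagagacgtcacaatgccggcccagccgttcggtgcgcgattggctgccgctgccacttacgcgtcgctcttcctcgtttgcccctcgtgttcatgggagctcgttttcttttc
SSR2: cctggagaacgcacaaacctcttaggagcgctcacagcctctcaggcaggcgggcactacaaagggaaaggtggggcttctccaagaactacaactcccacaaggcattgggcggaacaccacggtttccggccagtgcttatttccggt
SEC61B: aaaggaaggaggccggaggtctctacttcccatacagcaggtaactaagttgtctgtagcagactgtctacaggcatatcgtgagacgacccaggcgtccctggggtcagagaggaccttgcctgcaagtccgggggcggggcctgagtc

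The search covered 250 bases before to 50 after each start, and the table held 13 such promoters for 9 of the 10 members. The UPRE core was found in 3 of the 13, all on the strand opposite to the gene, beginning 17 bases before the start in SEC62, 41 in SSR3 and 129 in SSR4. Over all 35116 human promoters of this length, 0.729% held it. The SSR3 match lies before the most downstream of its 3 listed starts, inside the gene, and its other windows held none. The SSR4 match lies before the second of 2 listed starts. The longer ERSE, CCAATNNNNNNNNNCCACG, was in no member promoter and in 0.0769% of all promoters, and the last 5 letters of it, CCACG, occur inside the UPRE core as well. The match in SEC62 belongs to the member that fell with UPF1-1, and those in SSR3 and SSR4 to members that rose. A match is a description of letters and not evidence of binding.

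Among the TRAP subunits, SSR2 had 19.9, 16.3 and 26.1 TPM in UPF1-1 total RNA, 10.9, 11.3 and 22.1 TPM in total RNA of the UPF1-2 line, and 10.9, 11.9 and 19.6 TPM in GFP total RNA. The groups overlapped through the high replicate 3, but within each number UPF1-1 was above both other lines. Against GFP, SSR2 rose by 0.47 ± 0.07 (log2, SE) in the UPF1-1 line (adjusted p of 0.0033 by limma) and was higher in 3 of 3 replicate numbers. SSR4 had 58.5, 49.7 and 61.8 TPM in UPF1-1 total RNA, 36.5, 37.0 and 51.2 TPM in total RNA of the UPF1-2 line, and 38.4, 39.0 and 45.7 TPM in GFP total RNA. Every UPF1-1 library of SSR4 was above every GFP library. SSR4 rose by 0.37 ± 0.06 by limma, with an adjusted p of 0.0044, and was higher in 3 of 3 numbers.

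SSR3 had 25.0, 22.1 and 13.0 TPM in UPF1-1 total RNA, 12.8, 14.8 and 16.0 TPM in total RNA of the UPF1-2 line, and 13.2, 15.3 and 10.9 TPM in GFP total RNA. The UPF1-1 and GFP libraries overlapped, since UPF1-1 replicate 3 was below GFP replicates 1 and 2. SSR3 rose by 0.46 ± 0.11 (adjusted p of 0.027 by limma), and the differences within numbers were 0.72, 0.47 and 0.20. SSR1, the alpha subunit, had 1.52, 1.43 and 1.93 TPM in UPF1-1 total RNA, 0.943, 1.41 and 2.73 TPM in total RNA of the UPF1-2 line, and 1.15, 1.12 and 2.04 TPM in GFP total RNA. Its groups overlapped fully, and its log2 difference of 0.07 ± 0.10 between UPF1-1 and GFP did not pass, with an adjusted p of 0.63 by limma and a 95% interval of -0.14 to 0.29. Of the 4 TRAP mRNAs, 3 rose with UPF1-1, and that of SSR1 did not pass. The difference between SSR1 and the other subunits was not tested.

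Among the channel subunits, the pore gene SEC61A1 had 3.58, 3.90 and 7.94 TPM in UPF1-1 total RNA, 2.49, 3.08 and 6.87 TPM in total RNA of the UPF1-2 line, and 2.24, 3.06 and 6.34 TPM in GFP total RNA. Replicate 3 was the highest in each line, so the groups overlapped, and within each number UPF1-1 was highest. SEC61A1 rose by 0.31 ± 0.08 by limma, with an adjusted p of 0.035, and was higher in 3 of 3 numbers. SEC61B had 50.7, 50.7 and 41.9 TPM in UPF1-1 total RNA, 37.8, 38.7 and 50.7 TPM in total RNA of the UPF1-2 line, and 36.2, 39.5 and 38.1 TPM in GFP total RNA. All UPF1-1 libraries were above all GFP libraries, and UPF1-2 overlapped with both. SEC61B rose by 0.24 ± 0.07 by limma, with an adjusted p of 0.042, close to the threshold, and it did not pass with a pseudocount of 0.1 (0.051) or with upper quartile scaling (0.055).

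SEC61G, the gamma subunit, had 27.7, 28.0 and 19.2 TPM in UPF1-1 total RNA, 17.9, 19.6 and 23.7 TPM in total RNA of the UPF1-2 line, and 25.4, 27.0 and 19.95 TPM in GFP total RNA. UPF1-1 and GFP libraries overlapped fully, and the limma difference was -0.05 ± 0.08, with an adjusted p of 0.72. In the authors' deposited table the technical variance of SEC61G, which sleuth estimates from resampled reads, was 0.559 for UPF1-1 and GFP, against a median of 0.00278 over genes. It was 0.570 for the comparison of the isoforms in the authors' deposited table, and 0.0245 for UPF1-2 and GFP, where the median over genes was 0.00261. Its part in the SEC61G difference was not tested.

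SEC62 had 1.15, 1.12 and 1.11 TPM in UPF1-1 total RNA, 0.936, 1.31 and 2.09 TPM in total RNA of the UPF1-2 line, and 1.29, 1.43 and 1.73 TPM in GFP total RNA. Every UPF1-1 library was below every GFP library, and UPF1-2 spanned both. SEC62 fell by 0.37 on the log2 scale (SE 0.08) against GFP (adjusted p of 0.02 by limma) and was lower in 3 of 3 numbers. At a level near 1 TPM, the pseudocount of 0.5 understates a fold, and with a pseudocount of 0.1 the change was -0.46. SEC63 had 0.566, 0.496 and 0.755 TPM in UPF1-1 total RNA, 0.486, 0.682 and 1.20 TPM in total RNA of the UPF1-2 line, and 0.578, 0.632 and 1.09 TPM in GFP total RNA. With no filter its limma difference was -0.25, with an adjusted p of 0.084. TRAM1 had 7.62, 7.20 and 6.94 TPM in UPF1-1 total RNA, 5.27, 7.16 and 11.2 TPM in total RNA of the UPF1-2 line, and 6.73, 7.09 and 7.88 TPM in GFP total RNA. Its difference between UPF1-1 and GFP was -0.08 ± 0.10 by limma, with an adjusted p of 0.61.

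Leaving out a replicate number took away most of these calls and turned none of the 6 round. Without replicate 1, SSR2 and SSR4 passed, with adjusted p of 0.025 and 0.034 by limma. Without replicate 2, SSR2 alone passed, with an adjusted p of 0.047. Without replicate 3, the 5 members that rose still passed, and SEC62 had an adjusted p of 0.069. Per the authors' deposited table, no member had a sleuth q-value under 0.05 in any comparison of total RNA, and 45 genes did for UPF1-1 and GFP. SSR2 had p-values of 0.0127 for UPF1-1 against GFP and 0.0106 for the isoforms in the authors' deposited table.

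**Figure D2:**
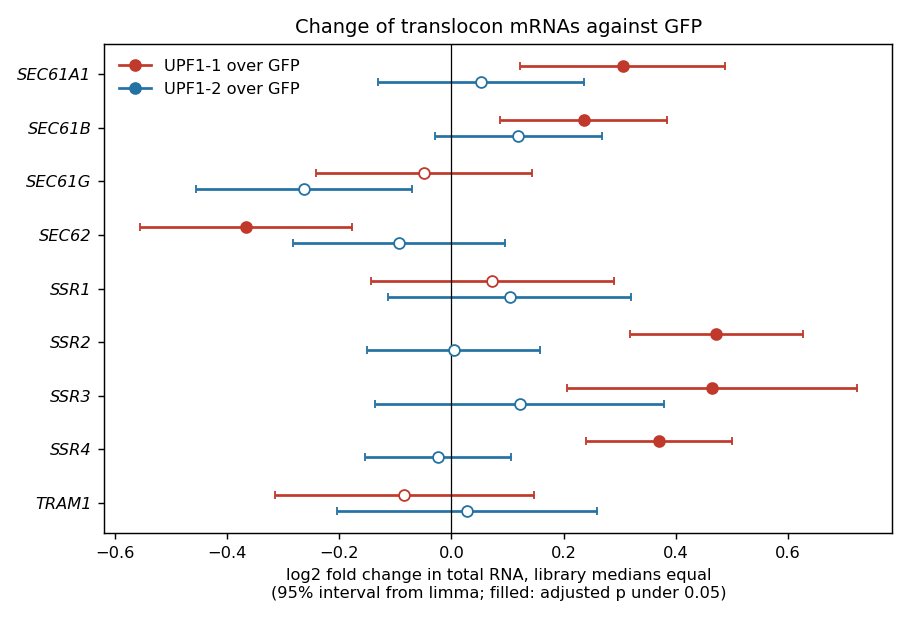
log2 fold change of 9 translocon mRNAs in total RNA with its 95% interval from limma, for UPF1-1 over GFP (red) and UPF1-2 over GFP (blue); filled points have an adjusted p under 0.05. The red points of SSR2, SSR3, SSR4, SEC61A1 and SEC61B lie between 0.24 and 0.47, that of SEC62 at -0.37, and no blue point is filled.

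With UPF1-2, none of the 9 members tested passed against GFP by limma, where 0.375% of all genes did, and 1 member had an unadjusted p under 0.05. That member was SEC61G, at -0.26 ± 0.08 with an adjusted p of 0.27, and it was lower in 3 of 3 numbers. The other members lay between -0.09 and 0.12. For SSR2 the difference was 0.00, with a 95% interval of -0.15 to 0.16, and for SSR4 it was -0.02, with an interval of -0.15 to 0.11. For SSR3 the interval was wider, -0.14 to 0.38, and its upper end came near the rise with UPF1-1.

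The isoforms were also compared directly. SSR2 was higher in UPF1-1 than in UPF1-2 total RNA by 0.47 ± 0.07 and SSR4 by 0.39 ± 0.06, each with an adjusted p of 0.0084 by limma and in 3 of 3 numbers. Thus 2 of 9 members were higher with UPF1-1 and none lower, while 5.49% of all genes were higher. SEC61A1 (0.25, adjusted p of 0.082), SEC62 (-0.27, 0.073) and SSR3 (0.34, 0.09) did not pass by limma. Without replicate 2 neither SSR2 nor SSR4 passed, both at an adjusted p of 0.11, and with the block but no centring they had 0.069 and 0.058. The comparisons with GFP and between the isoforms share libraries and are not independent of each other.

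Over the 9 total RNA libraries, after the mean of each replicate number was taken out, SSR2 and SSR4 varied most alike, with Pearson r of 0.98. SEC61A1 correlated with SSR4 at 0.93 and with SSR2 at 0.91, and SEC61B with SSR3 at 0.90. SEC62 ran opposite to SEC61A1 at -0.90. SEC61G correlated with SEC61A1 at -0.13 and with SEC61B at 0.07. The libraries share their groups, so these values restate the group differences in part. Among 3255 genes with a mean of at least 5 TPM, those most like SEC61A1 were PIM3 (r of 0.995), RNF5 (0.983), PAF1 (0.983), CKS1B (0.981) and MTG1 (0.981). SSR4 ranked 98 and SSR2 156 in that list.

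The other genes of ER targeting and translocation were described by machine. Over 59 such genes tested, 14 rose and 2 fell with UPF1-1 relative to GFP, with a median log2 change of 0.05, beside the 8.38% of all genes that were higher and 7.79% that were lower. With upper quartile scaling 13 rose and 6 fell, against 6.84% and 10.5% of all genes. These calls too depended on both steps. By limma with the block but no centring, 7 rose (C20orf24, DNAJB9, HM13, HSPA5, SEC11C, SRPR and SRPRB) and none fell. With medians equal but no block none of the 59 passed and 11 had an unadjusted p under 0.05. With neither step none of the 59 passed and 5 had an unadjusted p under 0.05. Without replicate 1, 7 rose and 1 fell, and without replicate 2, 3 rose and none fell. Of 8 genes of the signal recognition particle (SRP) and its receptor, which bring ribosomes to the membrane, 2 rose, both receptor subunits. SRPR, which binds the ribosome-bound particle, had 8.83 ± 3.20 TPM in UPF1-1 total RNA, 5.28 ± 2.83 TPM in UPF1-2 total RNA and 3.95 ± 1.47 TPM in GFP total RNA (SD, n = 3 each). SRPR rose by 0.98 ± 0.06 by limma, with an adjusted p of 3.3e-05, and its membrane anchor SRPRB rose by 0.60 ± 0.09, with an adjusted p of 0.0044. Both were also higher with UPF1-1 than with UPF1-2, by 0.68 (adjusted p of 0.00078) and 0.67 (0.0075). The 6 protein subunits of the particle itself did not pass against GFP. Between the isoforms, SRP68 of the particle was higher with UPF1-1, by 0.39 (adjusted p of 0.026 by limma), and its other subunits did not pass.

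Of 6 genes of signal peptide processing, 2 rose with UPF1-1: HM13, the signal peptide peptidase, by 1.25 ± 0.11, and SEC11C, a catalytic subunit of the signal peptidase, by 0.48 ± 0.07, with adjusted p of 0.00044 and 0.0042 by limma. HM13 was the one gene of these lists that also passed with UPF1-2, at 0.74 ± 0.11 with an adjusted p of 0.032, and it did not pass there with the block but no centring (adjusted p of 0.098 by limma) or with a pseudocount of 0.1 (0.051), nor without replicate 1 (0.16) or replicate 2 (0.35). Of 12 genes of the oligosaccharyltransferase, which glycosylates chains at the translocon, 5 rose and none fell. Among them RPN2 rose by 0.46 ± 0.09, the small subunit OSTC by 0.32 ± 0.08 and the catalytic subunit STT3A by 0.31 ± 0.07, with adjusted p of 0.0094, 0.023 and 0.016 by limma. Of 7 further partners tested, most of them lumenal chaperones and cochaperones, 3 rose. DNAJB9, a cochaperone of BiP, rose by 0.61 ± 0.07, HSPA5, which encodes BiP, by 0.49 ± 0.08, and DNAJB11 by 0.41 ± 0.07, with adjusted p of 0.0016, 0.0067 and 0.0083 by limma. DNAJB9 was below the filter of 1 TPM in every GFP library (0.681 to 0.867 TPM) and met it through the UPF1 lines, with 1.46 to 1.71 TPM in UPF1-1 total RNA. HSPA5 was also near the filter, at 0.645 to 1.82 TPM in GFP and 1.29 to 2.76 TPM in UPF1-1 total RNA.

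The remaining lists were of machines that insert membrane proteins by other routes. Of 9 multipass translocon genes, C20orf24 rose by 0.41 ± 0.07 (adjusted p of 0.0079 by limma) and NOMO1 fell by 0.25 on the log2 scale (SE 0.07, adjusted p of 0.049). NOMO1 has near-identical copies, so reads may be split between them and its value is uncertain. Of 10 genes of the ER membrane complex, EMC9 rose by 0.31 ± 0.09 (adjusted p of 0.045). Of 7 tail-anchor insertion genes, WRB, a subunit of the insertion receptor, fell by 0.50 on the log2 scale (SE 0.10, adjusted p of 0.01). Between the isoforms, 9 of the 59 were higher and 1, WRB, was lower with UPF1-1, beside 5.49% and 4.02% of all genes. With the block but no centring 2 were higher, SRPR and SRPRB, and with neither step none of the 59 passed by limma and 1 had an unadjusted p under 0.05.

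**Figure D3:**
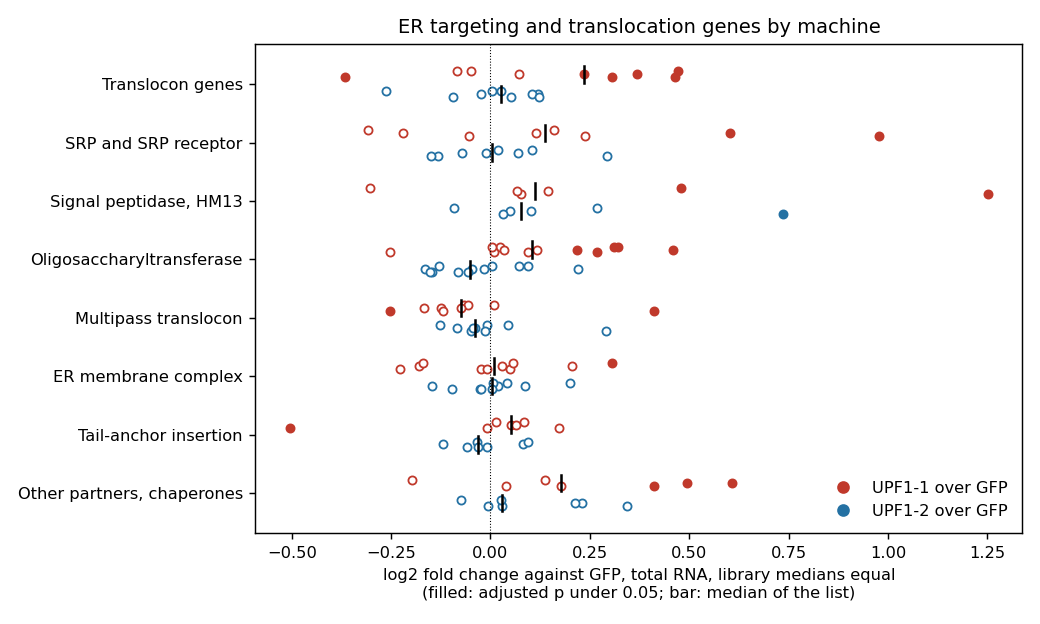
log2 fold change against GFP in total RNA for each gene of the translocon and of 7 related lists, for UPF1-1 (red, upper row of each list) and UPF1-2 (blue, lower row); filled points have an adjusted p under 0.05 and black bars are list medians. The translocon median is 0.24 with UPF1-1 and 0.03 with UPF1-2, with 6 filled red points in the translocon list, 5 in the oligosaccharyltransferase list and no more than 3 in any other.

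Recovery with tagged UPF1 ranged widely among the translocon mRNAs: SSR3 was far above the median gene and SEC61B and SEC61G far below it. The ratio of IP to total TPM for the median gene was 6.58, 6.34 and 7.98 in the UPF1-1 pairs and 7.91, 6.88 and 5.93 in the UPF1-2 pairs, so recovery is given relative to library medians, which lowers a log2 value by 2.56 with UPF1-1 and 2.53 with UPF1-2. Relative to that scale, 4 of 10 members were higher in the UPF1-1 IP than in UPF1-1 total RNA and 5 were lower, while 30.8% of all 11969 genes tested were higher and 43.9% lower. Those higher were SSR3, SSR1, SEC61A1 and SEC62, and those lower were SEC61G, SEC61B, SSR4, SEC63 and TRAM1. The calls of SEC63 and TRAM1 depended on the pseudocount: at 0.1 SEC63 was at 0.06 (adjusted p of 0.67 by limma), and at 1 TRAM1 was at -0.12 (0.34). With UPF1-2, 2 members, SSR3 and SEC61A1, were higher in the IP and 6 lower, beside 31.5% and 44.2% of all genes. The median over members was -0.17 with UPF1-1 and -0.56 with UPF1-2, and over all genes it was -0.16 and -0.15. Without centring no member was lower in an IP.

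**Figure D4:**
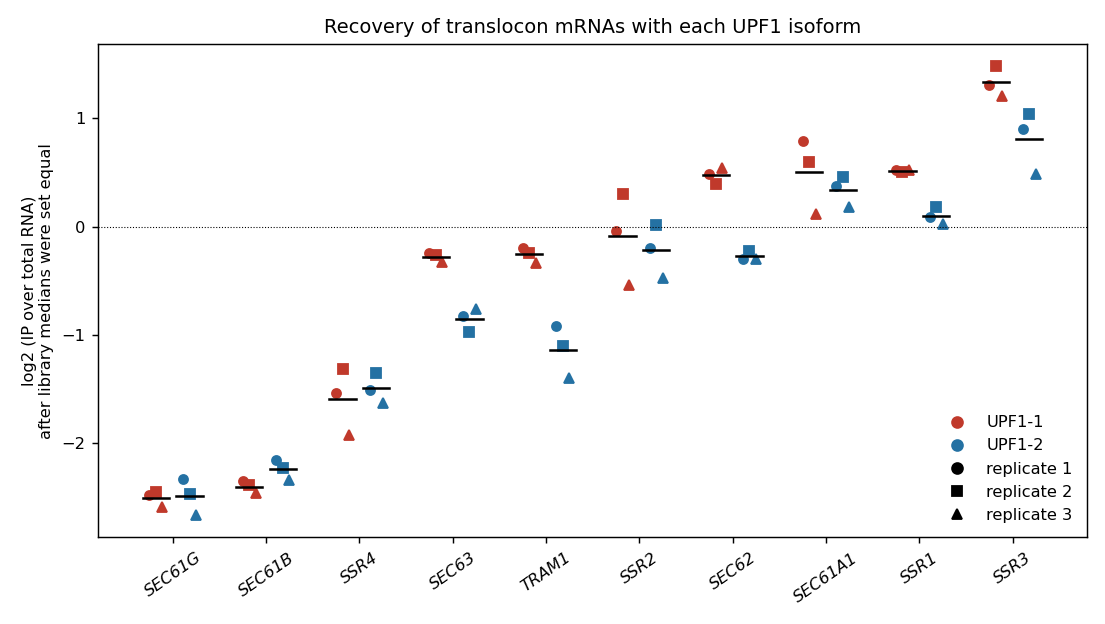
Recovery of each translocon mRNA, as log2 of IP over total RNA with equal library medians, for UPF1-1 (red) and UPF1-2 (blue); symbols are the 3 replicate numbers and bars their means, and 0 marks equal library medians, where the median recovery over all genes is -0.16 with UPF1-1 and -0.15 with UPF1-2. SEC61G, SEC61B and SSR4 lie below -1 with both isoforms, and SSR3 is highest with both. TRAM1, SEC62, SEC63 and SSR1 sit higher with UPF1-1 in every number, and so does SSR3, whose difference between isoforms did not pass.

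SSR3 was recovered best with both isoforms. It had 344, 329 and 224 TPM in the UPF1-1 IP, against 25.0, 22.1 and 13.0 TPM in UPF1-1 total RNA, and 154, 177 and 126 TPM in the UPF1-2 IP, against 12.8, 14.8 and 16.0 TPM in UPF1-2 total RNA. The IP libraries were far above the total RNA libraries in both lines, but higher TPM in an IP was shared by nearly all genes. With the block but no centring, 11464 of 11969 genes passed as higher in the UPF1-1 IP and 11485 in the UPF1-2 IP. On the centred scale the recovery of SSR3 was 1.33 ± 0.11 with UPF1-1 and 0.81 ± 0.11 with UPF1-2, with adjusted p of 9.8e-06 and 0.00018 by limma. With medians equal but without the block, a setting used for recovery below as well, the UPF1-2 value did not pass (adjusted p of 0.16 by limma). SSR1, another TRAP subunit, had 15.3, 13.8 and 24.7 TPM in the UPF1-1 IP, against 1.52, 1.43 and 1.93 TPM in UPF1-1 total RNA. Its recovery was 0.52 ± 0.07 with UPF1-1 (adjusted p of 0.00023 by limma) and 0.10 ± 0.07 with UPF1-2 (0.25). The rest of TRAP behaved otherwise: SSR2 did not pass in either line, at -0.09 ± 0.15 with UPF1-1 and -0.22 ± 0.15 with UPF1-2 (adjusted p of 0.6 and 0.22 by limma), though the UPF1-2 value passed with a pseudocount of 0.1 (-0.41, 0.031) and with upper quartile scaling (-0.33, 0.049). SSR4 was recovered poorly, at -1.59 ± 0.11 with UPF1-1 and -1.49 ± 0.11 with UPF1-2.

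The mRNAs of the small channel subunits were recovered worst. SEC61G had 27.0, 26.8 and 23.1 TPM in the UPF1-1 IP, against 27.7, 28.0 and 19.2 TPM in UPF1-1 total RNA, and 22.5, 19.9 and 20.4 TPM in the UPF1-2 IP, against 17.9, 19.6 and 23.7 TPM in UPF1-2 total RNA. Its level was about the same in IP and total RNA, while the median gene was several times higher in the IP. On the centred scale its recovery was -2.51 ± 0.08 with UPF1-1 and -2.49 ± 0.08 with UPF1-2, with adjusted p of 1.1e-07 and 1.5e-07 by limma. SEC61B had 54.2, 50.8 and 54.7 TPM in the UPF1-1 IP, against 50.7, 50.7 and 41.9 TPM in UPF1-1 total RNA, and 53.3, 46.5 and 54.8 TPM in the UPF1-2 IP, against 37.8, 38.7 and 50.7 TPM in UPF1-2 total RNA. Its recovery was -2.40 ± 0.07 with UPF1-1 and -2.24 ± 0.07 with UPF1-2. Before centring the IP of SEC61G differed from its total RNA by 0.05 with UPF1-1 and 0.04 with UPF1-2, and neither passed by limma (adjusted p of 0.7 and 0.76 with the block).

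The pore gene SEC61A1 stood apart from its small partners. It had 38.0, 34.3 and 65.2 TPM in the UPF1-1 IP, against 3.58, 3.90 and 7.94 TPM in UPF1-1 total RNA, and 23.7, 27.1 and 45.2 TPM in the UPF1-2 IP, against 2.49, 3.08 and 6.87 TPM in UPF1-2 total RNA. No IP library overlapped with total RNA, but before centring nearly all genes were higher in an IP, as given for SSR3. On the centred scale the recovery of SEC61A1 was 0.50 ± 0.12 with UPF1-1 and 0.34 ± 0.12 with UPF1-2, with adjusted p of 0.0058 and 0.035 by limma. Without replicate 1 neither value passed, at 0.35 with UPF1-1 and 0.31 with UPF1-2 (adjusted p of 0.088 and 0.12 by limma). The UPF1-2 value also did not pass without replicate 2 (0.27, 0.16), without the block (0.14), with a pseudocount of 0.1 (0.24, 0.12) or with upper quartile scaling (0.22, 0.1).

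Recovery of 4 of 10 members was higher with UPF1-1 than with UPF1-2, and of none lower, beside 4.43% of all genes that were higher and 6.27% that were lower. The 4 were TRAM1, SEC62, SEC63 and SSR1. Of these, SEC63 met the filter of 1 TPM in this fit through its IP libraries. Its total RNA had 0.496 to 0.755 TPM with UPF1-1 and 0.486 to 1.20 TPM with UPF1-2, near the pseudocount of 0.5. TRAM1 had 38.0, 33.7 and 41.9 TPM in the UPF1-1 IP and 18.6, 19.5 and 23.7 TPM in the UPF1-2 IP, while its total RNA levels overlapped. The ratio of IP to total RNA of TRAM1 was 5.24 ± 0.714 with UPF1-1 and 2.79 ± 0.707 with UPF1-2 (SD, n = 3 each). On the centred scale its recovery was -0.26 ± 0.10 with UPF1-1 and -1.14 ± 0.10 with UPF1-2 (adjusted p of 0.037 and 1e-05 by limma, against 0). The UPF1-1 value did not pass without replicate 1 (0.1), without replicate 2 (0.11) or without the block (0.29), and it lay near the median recovery over all genes of -0.16. The difference in recovery was 0.88 ± 0.14, with an adjusted p of 0.016 by limma. SEC62 had 12.1, 10.7 and 16.4 TPM in the UPF1-1 IP and 6.83, 8.17 and 11.0 TPM in the UPF1-2 IP, which overlapped. Its ratios were 10.5, 9.52 and 14.7 with UPF1-1 and 7.30, 6.24 and 5.28 with UPF1-2, which did not. On the centred scale SEC62 was at 0.48 ± 0.08 with UPF1-1 and at -0.27 ± 0.08 with UPF1-2 (adjusted p of 0.00052 and 0.01 by limma, against 0). The UPF1-2 value did not pass without replicate 1 (0.12), without replicate 2 (0.058), without the block (0.15) or with a pseudocount of 0.1 (0.051), and the median recovery over all genes there was -0.15. Recovery of SEC62 differed between isoforms by 0.75 ± 0.11 (adjusted p of 0.015 by limma). Its total RNA differed between UPF1-1 and UPF1-2 by -0.27 ± 0.08 (adjusted p of 0.073 by limma), and the part of total RNA in the difference in recovery was not tested.

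SEC63 had ratios of 7.79, 7.76 and 8.88 with UPF1-1 and 6.15, 4.24 and 4.16 with UPF1-2. Its recovery was -0.28 ± 0.10 with UPF1-1 and -0.85 ± 0.10 with UPF1-2 (adjusted p of 0.031 and 6.9e-05 by limma, against 0). The UPF1-1 value is not a stable call: each of its 3 ratios was above that of the median gene in the same pair, a pseudocount of 0.1 gave 0.06 (adjusted p of 0.67), and it did not pass without any 1 of the 3 replicate numbers (0.051 to 0.15) or without the block (0.057). Recovery of SEC63 differed between isoforms by 0.57 ± 0.14 (adjusted p of 0.04 by limma), and did not pass with a pseudocount of 1 (0.47, 0.062). SSR1 had ratios of 10.1, 9.70 and 12.8 with UPF1-1 and 9.65, 8.26 and 6.40 with UPF1-2, and its recovery differed by 0.42 ± 0.10 (adjusted p of 0.04). The ratios of SEC63 did not overlap between isoforms, and those of SSR1 nearly touched. SSR3 had ratios of 13.8, 14.9 and 17.2 with UPF1-1 and 12.1, 11.9 and 7.86 with UPF1-2, and its difference of 0.52 ± 0.16 did not pass, with an adjusted p of 0.066 by limma, but passed with a pseudocount of 0.1 (0.043) and with upper quartile scaling (0.033). The differences of SEC61A1 (0.17) and SSR2 (0.13) did not pass either, with adjusted p of 0.57 and 0.74 by limma. SEC61G, SEC61B and SSR4 had differences of -0.02, -0.16 and -0.09, and the 95% interval for SEC61G was -0.28 to 0.24. TRAM1, SEC62, SEC63 and SSR1 thus had higher recovery with UPF1-1, and the other members did not pass. Whether members differed from each other in this was not tested.

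The calls between isoforms depended on the fit. By limma, no member and no gene passed without the block, where 340 genes had an unadjusted p under 0.05, or with the block but no centring, where 1878 did. None passed without replicate 1 or without replicate 2, where 1599 and 2513 genes had an unadjusted p under 0.05. For TRAM1 the difference was 0.97 without replicate 1 and 0.90 without replicate 2, with adjusted p of 0.29 and 0.069, and for SEC62 it was 0.73 and 0.82, with 0.29 and 0.071. Total RNA of TRAM1 ranged between 5.27 and 11.2 TPM over the UPF1-2 libraries, with replicate 3 the highest, and the part of that library in the difference was not tested beyond leaving it out, which gave 0.80 with an adjusted p of 0.028.

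Recovery ran with transcript length among the translocon mRNAs. A relative length was taken from the authors' mean natural log of estimated counts set against TPM, since estimated counts per TPM grow with the effective length, and is given as a fold of the median gene. SEC61B (0.158), SSR4 (0.199) and SEC61G (0.214) were shortest, followed by SSR2 (0.440), TRAM1 (0.829) and SSR3 (1.24). SEC61A1 (1.58), SEC62 (2.04), SEC63 (2.16) and SSR1 (3.58) were longest. The 3 members of poorest recovery were thus the 3 shortest, and also the 3 of highest TPM in total RNA. Across the 10 members, log2 length and recovery correlated with Pearson r of 0.84 and Spearman rho of 0.67 with UPF1-1 and with 0.76 and 0.64 with UPF1-2. Across 11469 genes r was 0.54 and 0.55, a description across genes, which are not replicates, in which TPM enters both axes.

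**Figure D5:**
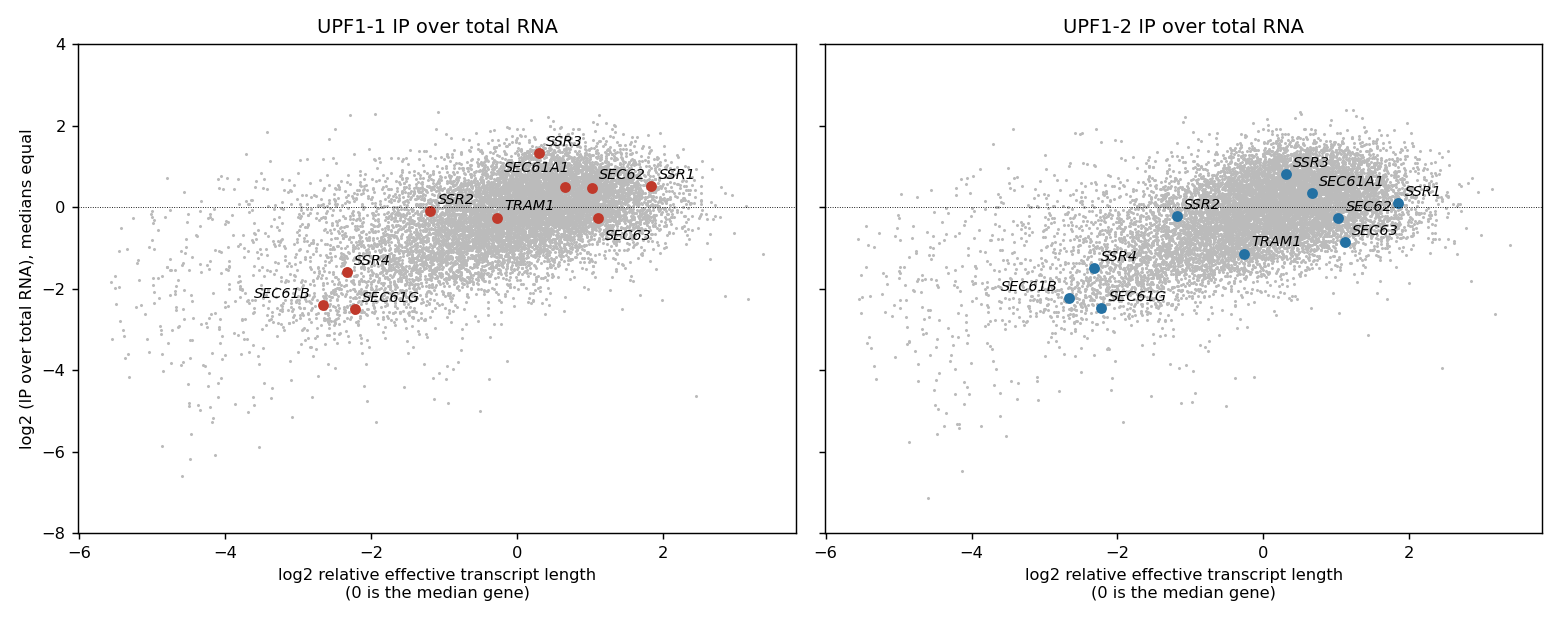
Recovery (log2 IP over total RNA, library medians equal) against log2 relative effective transcript length for all genes (grey) and the translocon mRNAs (coloured), with UPF1-1 on the left and UPF1-2 on the right. SEC61B, SEC61G and SSR4 lie at short length and low recovery within the cloud of genes, and SSR3 lies near its upper edge with UPF1-1.

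Each member was also set beside the genes within 0.25 log2 units of its relative length. SSR4 stood at the 43.3 percentile of recovery with UPF1-1 and the 50.4 percentile with UPF1-2, near the middle of genes as short. SEC61B stood at the 26.2 and 28.8 percentiles and SEC61G at the 11.6 and 7.05 percentiles. SSR3 stood at the 97.1 percentile of 2131 genes of like length with UPF1-1 and at the 81.8 percentile with UPF1-2. SEC63 stood at the 20.2 percentile with UPF1-1 and at the 4.61 percentile with UPF1-2, and TRAM1 at the 46.6 and 10.6 percentiles. The difference in recovery between isoforms correlated with length at r of 0.74 across the 10 members and at -0.05 across all genes.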

How the data were processed

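The members and gene lists were chosen with earlier results of these data known. Per the file headers, the deposited values were TPM for each library, and the authors' ratio of IP to total TPM for each isoform and replicate number. From sleuth, the authors deposited p-values, q-values, technical variances, effects and mean estimated counts on the natural log scale, and log2 fold columns. The submitters' processing notes named cutadapt, kallisto, sleuth and the build hg19, without versions. The table listed 1 transcript per gene and no read totals, so the depth of each library is unknown, and no counting interval is given.

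A pseudocount of 0.5 was added to TPM before taking log2. Genes that reached 1 TPM in fewer than 3 libraries of a fit were dropped, and library medians were made equal. The trend method of limma 3.58.1 (R 4.3.3) was used, 2-sided, with Benjamini-Hochberg adjustment over all genes tested and a threshold of 0.05. The total RNA fit held 9 libraries and 9325 genes, with the replicate number as a block. The IP fit held 12 libraries and 11969 genes, with the combination of isoform and replicate number as a block. The test of the isoforms' recovery was the interaction. The fits were tested on data simulated with an additive effect of the replicate number and normal noise. Such data cannot show whether the block is right for these samples.

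Pairing by number was checked on deviations from group means. The correlation of same-number libraries lay between 0.70 and 0.95 (total RNA, 9 pairs) and between 0.57 and 0.91 (IP fit, 18 pairs). Numbers were treated as pairs, a choice made with earlier results of these data known. Replicates 1 and 2 of unlike groups gave 0.64 to 0.80 and 0.59 to 0.74, so mainly replicate 3 is set apart. For IP and total RNA the pairing is also that of the authors' deposited ratios.

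All members were named. Values in every library were given for members past the threshold in total RNA and for the 2 highest and 2 lowest recoveries. Genes of other lists were named where past the threshold, at most 3 in each direction per list. A comparison with protein length was planned, and the relative transcript length, chosen after the table was seen, took its place, since protein sequences were not used here. Promoters came from RefSeq (GRCh38.p14) by symbol, for 9 of 10 members. There were 10 alternative settings.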

Additional observations from a re-analysis of the deposited data

Results flagged for a closer look

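Differences between the isoforms were past the threshold for 6 values. In recovery (IP over total RNA), UPF1-1 was above UPF1-2 by 0.88 on the log2 scale for TRAM1, 0.75 for SEC62, 0.57 for SEC63 and 0.42 for SSR1, by limma's interaction test with adjusted p of 0.016, 0.015, 0.04 and 0.04, and in 3 of 3 replicate numbers each. In total RNA, the effects of UPF1-1 and UPF1-2 against GFP differed by 0.47 for SSR2 and 0.39 for SSR4, each with an adjusted p of 0.0084 by limma. No explanation was tested.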

How the results depend on the processing

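In what follows, the unblocked setting has no replicate block and medians as deposited, the uncentred setting has the replicate block alone, and the unpaired setting has equal medians with no replicate block. Over all alternatives, 431 member values kept their direction and side of the threshold, 77 no longer passed, 8 newly passed and 54 changed sign, and the cause was not tested except where centring shifts every value alike. Genes past the threshold for UPF1-1 against GFP numbered 1507, and 2 unblocked, 301 uncentred and 16 unpaired, with 206 to 1141 when a replicate number was left out. Members past it numbered 6, and 0, 2 and 0 in these settings (1, 5 and 3 at an unadjusted p under 0.05), with 1 to 5 when a number was left out. For UPF1-2 against GFP there were 35 genes, and 1, 6 and 3, with 3 to 11 when a number was left out. For UPF1-1 against UPF1-2 total RNA there were 887 genes, and 0, 89 and 0 (89, 1148 and 477 unadjusted), with 17 to 451 when a number was left out. Members there numbered 2, and 0, 0 and 0 (1, 4 and 2 unadjusted), with 0 to 4 when a number was left out. For the isoform difference in recovery there were 1280 genes, and 0, 0 and 0 (340, 1878 and 846 unadjusted), 810 with a pseudocount of 1, and 0 to 1104 when a number was left out. Members there numbered 4, and 0, 0 and 0 (1, 5 and 4 unadjusted), with 0 to 3 when a number was left out. With UPF1-2, 5 members instead of 8 passed in recovery in the unpaired setting.

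Centring lowers every recovery by the shift of the median gene, so values below 0 became positive in the unblocked and uncentred settings, which give the same estimate. With UPF1-1 these were 0.16 for SEC61B, 0.054 for SEC61G, 2.28 for SEC63, 2.47 for SSR2, 0.97 for SSR4 and 2.30 for TRAM1. With UPF1-2 they were 0.29 for SEC61B, 0.042 for SEC61G, 2.26 for SEC62, 1.68 for SEC63, 2.31 for SSR2, 1.04 for SSR4 and 1.39 for TRAM1. In the same settings, SEC61G (0.039) and TRAM1 (0.0053) changed sign for UPF1-1 against GFP, SSR4 (0.0044) for UPF1-2 against GFP, SSR1 (0.029) between the isoforms in total RNA, and SEC61G (0.012) in the isoform difference in recovery. SEC63 recovery with UPF1-1, called lower at -0.28, was 0.055 with a pseudocount of 0.1. The remaining changes of sign were in values that had not passed. SSR2 recovery with UPF1-1 was 0.094 with a pseudocount of 1. SSR1 recovery with UPF1-2 was -0.019 and the isoform difference of SEC61G 0.062 with upper quartile scaling. SSR2 for UPF1-2 against GFP was -0.0022 with no filter.

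When a replicate number was left out, values ranged as follows. For UPF1-2 against GFP, SEC61A1 ranged between -0.039 and 0.18, SSR1 between -0.0062 and 0.20, SSR2 between -0.045 and 0.082, SSR4 between -0.054 and 0.043, and TRAM1 between -0.039 and 0.15. Between the isoforms in total RNA, SSR1 ranged between -0.14 and 0.021 and TRAM1 between -0.27 and 0.024. SSR2 recovery with UPF1-1 ranged between -0.29 and 0.13. The isoform difference in recovery ranged between -0.061 and 0.047 for SEC61G and between -0.15 and 0.014 for SSR4. The replicate block changed calls as given above and no estimate. Among the members, SEC63 and SEC62 had the lowest mean natural log of estimated counts for UPF1-1 and GFP, at 6.22 and 6.83 in the authors' deposited table. Technical variance there was highest for SEC61G, at 0.559, against 0.00202 for SEC63 and 0.00096 for SEC62. How far depth limits any member was not tested.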

Other observations

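The sum of the 10 translocon mRNAs was 725 ± 24.2 TPM in the UPF1-1 IP and 459 ± 24.4 TPM in the UPF1-2 IP (SD, n = 3 each), and SSR3 made up the largest part of it in both. The genes of the table together held 54.2% ± 13.7 of the TPM scale in the UPF1-1 IP and 54.6% ± 13.2 in the UPF1-2 IP, so the sums stand against like totals.

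Of the 62 other genes of ER targeting and translocation in the IP fit, 14 were higher and 39 lower in the UPF1-1 IP than in UPF1-1 total RNA, and 11 were higher and 41 lower with UPF1-2. At the same threshold, the UPF1-1 IP held 30.8% of all genes above its total RNA and 43.9% below it. For the UPF1-2 IP these shares were 31.5% above and 44.2% below. The median recovery of the 62 genes was -0.75 with UPF1-1 and -0.90 with UPF1-2, and over all genes it was -0.16 and -0.15. The directions are relative to library medians. With the block but no centring, the UPF1-1 IP had 58 of the 62 higher and 2 lower. The UPF1-2 IP had 57 higher and 1 lower. Nearly all genes were higher in that setting: 11464 of 11969 in the UPF1-1 IP and 11485 in the UPF1-2 IP. Poor recovery included small subunits such as OST4, at -3.10 with UPF1-1 and -3.20 with UPF1-2, and TMEM258, at -2.78 and -2.79. MAGT1, at 1.50 and 1.19, and SPCS3, at 1.27 and 0.75, were recovered well by limma's fit. Recovery of DNAJB9, a cochaperone of BiP, was 0.93 ± 0.13 (log2, SE) higher with UPF1-1 than with UPF1-2, with an adjusted p of 0.015 by limma. It was the largest such difference past the threshold in these lists, while KRTCAP2, at -1.69 ± 1.11, did not pass (adjusted p of 0.35). The call of DNAJB9 was subject to the same dependence on the block and on replicates 1 and 2 as those of TRAM1 and SEC62.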
